A study of Mus musculus with 6 samples.

Results

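5-Hydroxymethylcytosine (5hmC) was compared between mice that lack Tet1 (KO, knockout) and wild-type mice (WT) over the genes of 6 enzymes that write or oxidise DNA methylation. The genes were Tet1, Tet2 and Tet3, which encode the Tet dioxygenases, and Dnmt1, Dnmt3a and Dnmt3b, which encode the DNA methyltransferases. A window was set around each gene in the mm9 build of the mouse genome, and every counted region whose midpoint fell in a window was taken. This gave 94 of the 192196 regions in the count table, 44 in the Tet windows and 50 in the Dnmt windows.

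DNA methylation is placed on cytosine by the Dnmt enzymes and is oxidised to 5hmC by the Tet enzymes. Dnmt1 is the maintenance enzyme, which copies methylation onto the new strand after replication, while Dnmt3a and Dnmt3b methylate sites that carried no mark before. In brain, 5hmC is abundant and is known to lie over gene bodies and enhancers. The question put to these windows was whether the 5hmC carried by the genes of this machinery differed when Tet1 was lost, and whether the targeted Tet1 gene itself lacked counts in KO.

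The groups were 2 KO and 2 WT 5hmC libraries, numbered as sample 1 and sample 2 of each genotype. The labels give the material as brain of Tet1 KO and Tet1 WT mice, whereas the study describes cultured astrocytes from newborn pups and a constitutive knockout. Age, sex, strain and the number of animals behind a library are not given in the labels, nor whether the samples of a genotype came from separate animals. The spread between samples of a genotype can therefore not be assigned to animals or to technique. The cell type could not be checked against markers, because the libraries hold DNA and no transcripts. A library of the input DNA was listed for sample 1 of each genotype and was not used here.

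The libraries held between 16819455 and 19288900 counts, of which 6422 to 7053 lay in the 6 windows. The libraries stood apart outside the windows. The region of highest count took 8.52% of the counts in KO sample 1 and 27.3% in KO sample 2, against 13.1% and 25.002% in WT samples 1 and 2, and it lay in none of the windows. Chromosome Y carried 1765 and 46 counts in KO samples 1 and 2, against 5353 and 4420 in WT. Sex make-up may thus differ between the KO libraries and between the genotypes, which was not tested. Because the libraries were uneven, levels are given as normalised read counts (CPM). Library sizes were scaled with TMM, the trimmed mean of log ratios, so that a few extreme regions weigh little. This scaling also takes out a change shared by most regions, so levels are relative to the other regions. For comparison between genes they were divided by the length of the window in kb. The detection floor of 3 counts stood between 0.141 and 0.195 CPM and covers counting error only.

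Each window is named by its gene and lies as follows in mm9. Tet1 was taken on chromosome 10 from 62.24 to 62.40 Mb, Tet2 on chromosome 3 from 133.11 to 133.23 Mb and Tet3 on chromosome 6 from 83.30 to 83.42 Mb. Dnmt1 was taken on chromosome 9 from 20.70 to 20.78 Mb, Dnmt3a on chromosome 12 from 3.79 to 3.93 Mb and Dnmt3b on chromosome 2 from 153.46 to 153.53 Mb. In gene order (GRCm38.p6), Tet1 lies between Ccar1 and Slc25a16, Tet2 between Ppa2 and Cxxc4, and Tet3 between Bola3 and Dguok. Dnmt1 lies between Eif3g and S1pr2, Dnmt3a between Dtnb and Pomc, and Dnmt3b between Commd7 and Mapre1. The windows may reach past the genes, and no mm9 gene model was used here, so a region is given by position and not as exon, intron or promoter.

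To examine the targeted gene first, the 12 regions of the Tet1 window were searched for regions empty in KO. A region was called empty with 0 counts in both KO libraries and at least 10 in both WT libraries. There were 0 such regions among the 12, and 0.00104% of all regions in the table (2 of 192196) met the definition. The reverse pattern, empty in both WT libraries, was met by 0.00052% of all regions (1 of 192196). A milder definition, with both KO libraries under 10% of the lower WT library, was met by 0 of the 12 Tet1 regions and by 0.00364% of all regions (7 of 192196), none of them on chromosome 10. KO counts in the Tet1 regions ranged from 6 to 205. In the Tet1 region that came nearest to a loss, the lower KO library still held 57.0% of the level of the lower WT library.

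The 12 Tet1 regions left most of the window without a measurement. They covered 4.50% of its length. No region lay in the first 66.4 kb from the low-coordinate end, and the longest stretch between neighbouring regions was 34.1 kb. A deletion that fell between counted regions could not be seen in these data, and the position of the deleted part is not given in the labels. The KO label could therefore not be checked from the Tet1 counts.

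Next, the level of 5hmC was measured over each window. Levels differed more between the genes than between the libraries. Dnmt3a held 0.957 and 1.39 CPM per kb in KO samples 1 and 2, and 1.04 and 1.11 CPM per kb in WT samples 1 and 2. Tet3 held 0.724 and 0.887 CPM per kb in KO, and 0.724 and 0.812 CPM per kb in WT. Dnmt1 held 0.343 and 0.620 CPM per kb in KO, and 0.542 and 0.574 CPM per kb in WT. In Dnmt3a and Dnmt1, KO sample 1 was the lowest of the 4 libraries and KO sample 2 the highest, so the WT pair lay between the KO libraries.

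The other windows were lower. Tet1 held 0.272 and 0.288 CPM per kb in KO, and 0.273 and 0.271 CPM per kb in WT, the narrowest range of the 6 windows. Tet2 held 0.240 and 0.161 CPM per kb in KO, and 0.168 and 0.189 CPM per kb in WT, so again the KO libraries lay on either side of WT. Dnmt3b held 0.144 and 0.122 CPM per kb in KO, and 0.120 and 0.124 CPM per kb in WT.

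**Figure D1:**
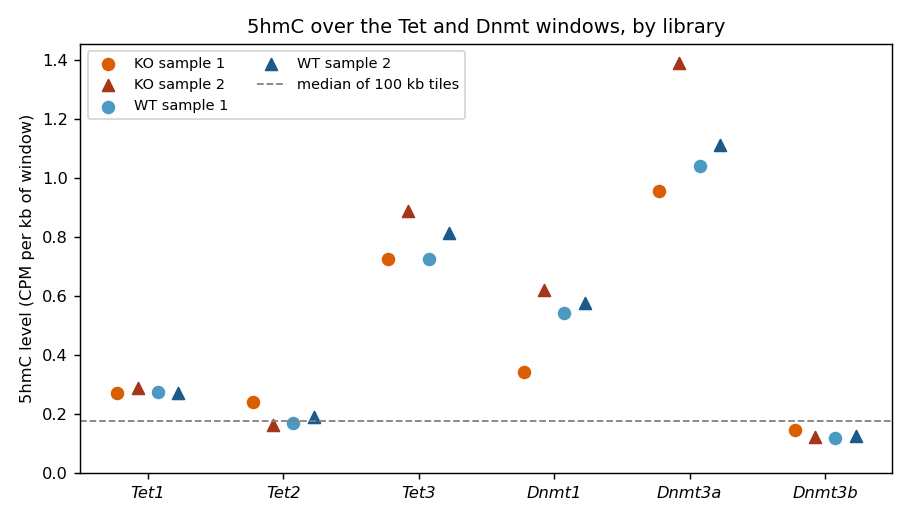
5hmC level of each window in each library, in CPM per kb of window. The dashed line is the median of the 100 kb tiles that held a counted region. Each point is 1 library. The order Dnmt3a, Tet3, Dnmt1, Tet1, Tet2, Dnmt3b holds without overlap between neighbours, while KO and WT points overlap within every gene.

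The order of the genes was the same in all 4 libraries. Mean levels over the libraries were 1.12 CPM per kb for Dnmt3a, 0.787 for Tet3, 0.520 for Dnmt1, 0.276 for Tet1, 0.189 for Tet2 and 0.127 for Dnmt3b. Each gene stood between 1.43-fold and 1.88-fold above the next. For none of the 5 neighbouring pairs did the libraries of the higher gene overlap those of the lower one. The windows were set against the 22453 tiles of 100 kb that held a counted region, with a median of 0.175 CPM per kb. Among them, Dnmt3a stood at percentile 94.2, Tet3 at 87.8 and Dnmt1 at 78.3. Tet1 stood at percentile 61.6, Tet2 at 51.9 and Dnmt3b at 43.2, near the middle of these tiles. Tiles without a counted region were not ranked. The order did not separate the families, since the highest and the lowest level both belonged to de novo methyltransferases.

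The windows also differed in how many regions they held. Dnmt3a held 26.4 regions per 100 kb and Tet3 20, followed by Dnmt1 with 12.5, Tet1 with 7.5, Tet2 with 6.67 and Dnmt3b with 4.29. This was the same order as that of the levels. The level of a window is summed over its counted regions only, so it depends in part on their number. The median tile, among those with a counted region, held 6 regions. Regions covered 15.6% of the Dnmt3a window and 1.97% of the Dnmt3b window. Per kb of covered sequence the levels lay close together, from 5.64 CPM per kb in Tet2 to 7.29 in Dnmt1, with 7.21 in Dnmt3a and 6.46 in Dnmt3b. The regions of the 6 windows had a median width of 443 bp and a median level of 2.75 CPM, beside 435 bp and 2.55 CPM for all regions.

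The share of the level held by a few regions differed between the windows. In Dnmt3b, all 3 regions lay past the first 35.8 kb of the window. The window held no others, so the 3 made up the whole of its level. In Tet2 the 3 highest of 8 regions held 61.8% of the level, and in Dnmt1 the 3 highest of 10 held 61.5%. In Tet3 the 3 highest of 24 held 30.5%, and in Dnmt3a the 3 highest of 37 held 30.6%. Such a share depends on the number of regions in a window, so it does not show how evenly the level was spread. The median gap between neighbouring regions was 1.66 kb in Dnmt3a and 2.02 kb in Tet3, against 14.9 kb in Tet2 and 16.1 kb in Dnmt3b.

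**Figure D2:**
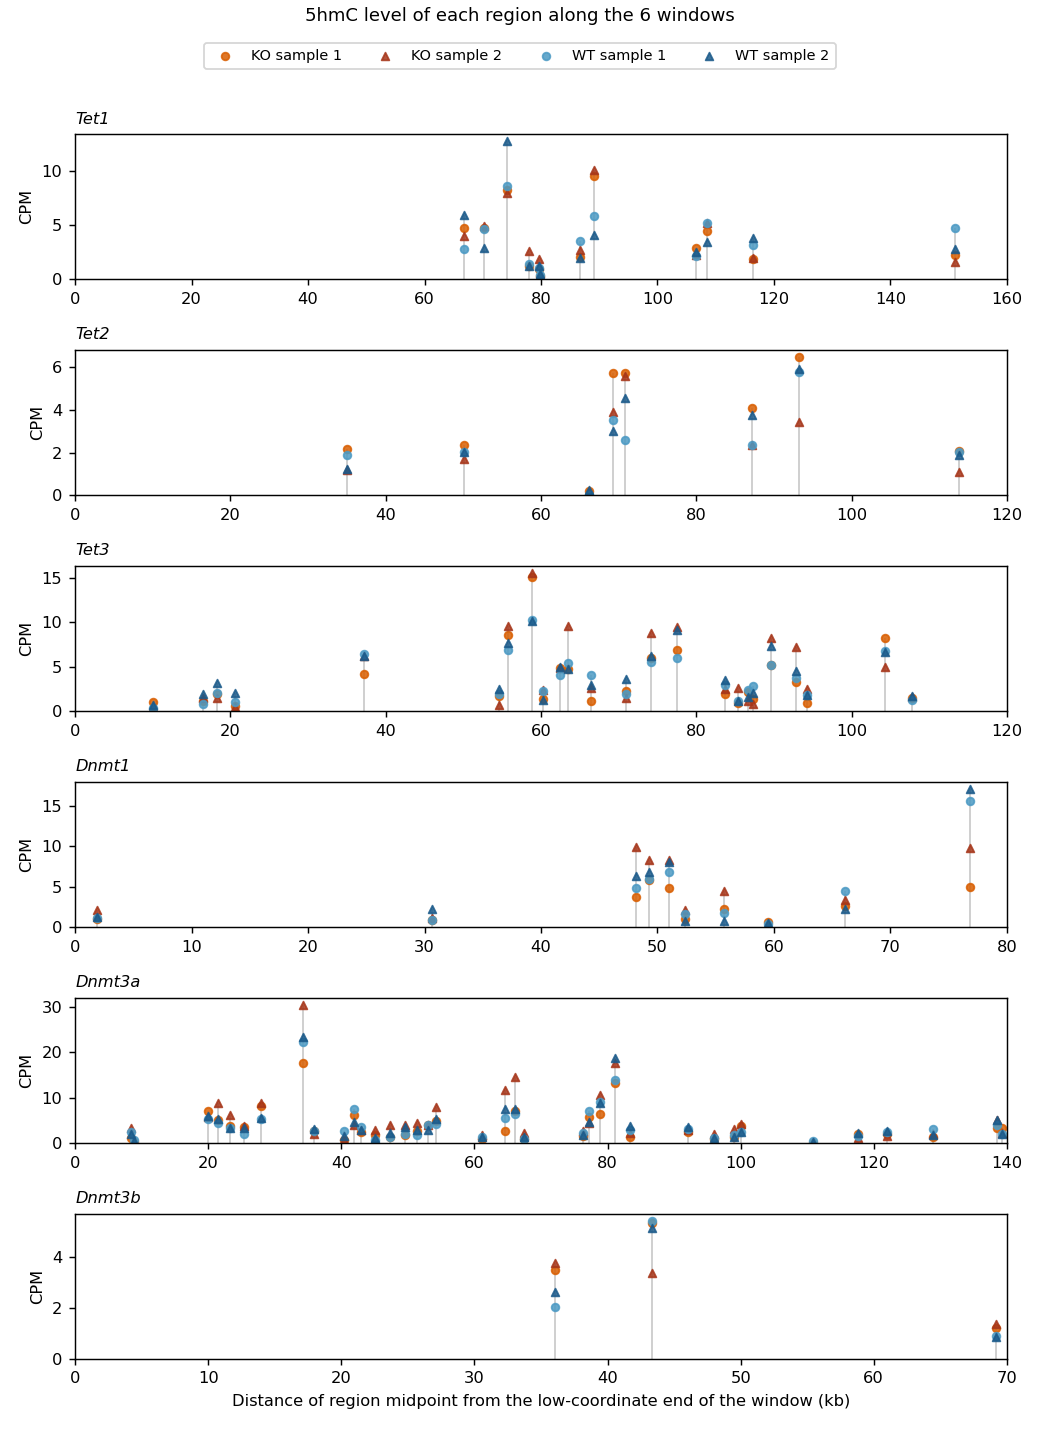
Level of every region (CPM) against its distance in kb from the low-coordinate end of the window, with 1 panel per gene and 1 marker per library. Tet1 shows no region before 66.4 kb, Dnmt1 carries its highest WT level near the far end of the window, and Dnmt3a and Tet3 hold runs of closely spaced regions.

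For comparison with the neighbourhood of each gene, the 500 kb on each side was measured in the same way. The flanks of Dnmt3a held 0.360 CPM per kb, against 1.12 in the window, and those of Tet3 held 0.265, against 0.787. Dnmt1 also stood above its flanks, with 0.520 against 0.360 CPM per kb. Each of these 3 windows stood above either side taken alone. The sides of the other genes differed from each other. The Dnmt3b window held 0.127 CPM per kb, between 0.483 on the low-coordinate side and 0.0940 on the other. The Tet2 window, with 0.189 CPM per kb, also lay between its sides, with 0.115 and 0.214. The Tet1 window, with 0.276 CPM per kb, lay under the low-coordinate side (0.431) and close to the other (0.288). In the flanks of Tet3, the level of KO sample 1 was 0.207 CPM per kb and that of KO sample 2 was 0.346, with both WT libraries in between at 0.250 and 0.256. The flanks of Dnmt1 held 0.297 and 0.487 CPM per kb in the KO libraries and 0.312 and 0.343 in WT. In the flanks of Tet3, Dnmt1, Tet1 and Dnmt3b the KO libraries thus lay on either side of WT. This was not so in the flanks of Dnmt3a, with 0.346 and 0.392 CPM per kb in KO and 0.340 and 0.361 in WT. Nor was it so in those of Tet2, with 0.169 and 0.151 CPM per kb in KO and 0.178 and 0.161 in WT.

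**Figure D3:**
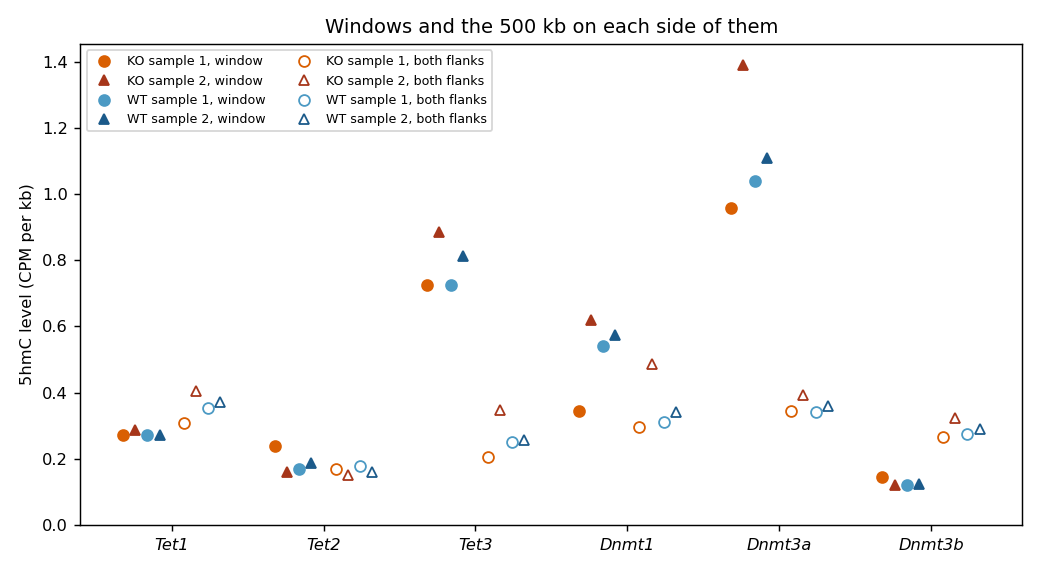
5hmC level (CPM per kb) of each window (filled) and of the 500 kb on both sides of it (open), 1 point per library. Dnmt3a and Tet3 stand above the mean of their flanks in every library, and KO sample 2 is the highest library in the flanks of Tet1, Tet3, Dnmt1, Dnmt3a and Dnmt3b.

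Next, the window sums were tested between genotypes. None of the 6 windows differed between KO and WT beyond the spread between libraries. The sums were fitted together with 100 kb tiles of the rest of the genome by the quasi-likelihood test of edgeR, with Benjamini-Hochberg adjustment over 20102 rows, and 0% of the rows passed at adjusted p under 0.05. At an unadjusted p under 0.05 there were 224 rows, or 1.11%, and none was a member window. DESeq2 also called 0 of the 6 windows, and 0 of the 20102 rows. With 2 libraries against 2, an exact permutation test cannot give a two-sided p below 0.333.

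The log2 fold change of KO over WT was 0.06 in Tet1, with a standard error (SE) of 0.17 and a 95% interval from -0.33 to 0.46. In Tet3 it was 0.09 ± 0.19 (SE), from -0.35 to 0.53, and in Tet2 0.19 ± 0.26 (SE), from -0.41 to 0.79. The intervals of the Dnmt genes were wider than those of Tet1 and Tet3. Dnmt1 had a log2 fold change of -0.19 ± 0.29 (SE), from -0.86 to 0.48. For Dnmt3a it was 0.15 ± 0.22 (SE), from -0.38 to 0.68, and for Dnmt3b 0.15 ± 0.32 (SE), from -0.60 to 0.89. The intervals leave room for a change of the Tet1 window between 0.794-fold and 1.38-fold, and the adjusted p was 1.00 for each of the 6 windows by edgeR.

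The KO libraries differed from each other more than the WT libraries did. The difference was 1.81-fold over Dnmt1 and 1.45-fold over Dnmt3a, where KO sample 2 was higher, and 1.48-fold over Tet2, where KO sample 1 was higher. The WT libraries differed by 1.12-fold at most. Without KO sample 1, the log2 fold change turned to 0.19 in Dnmt1 and -0.10 in Tet2, and was 0.41 in Dnmt3a, with an adjusted p of 0.0158 by edgeR. Without KO sample 2 it turned to -0.17 in Dnmt3a and -0.085 in Tet3, and was -0.70 in Dnmt1, with an adjusted p of 0.0394 by edgeR. In Tet3 it was also just below 0 without WT sample 1, at -0.00494. In such fits the lone KO library is assumed to vary like the WT pair, and the KO libraries point in opposite directions over Dnmt1, Dnmt3a, Tet2 and Tet3.

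**Figure D4:**
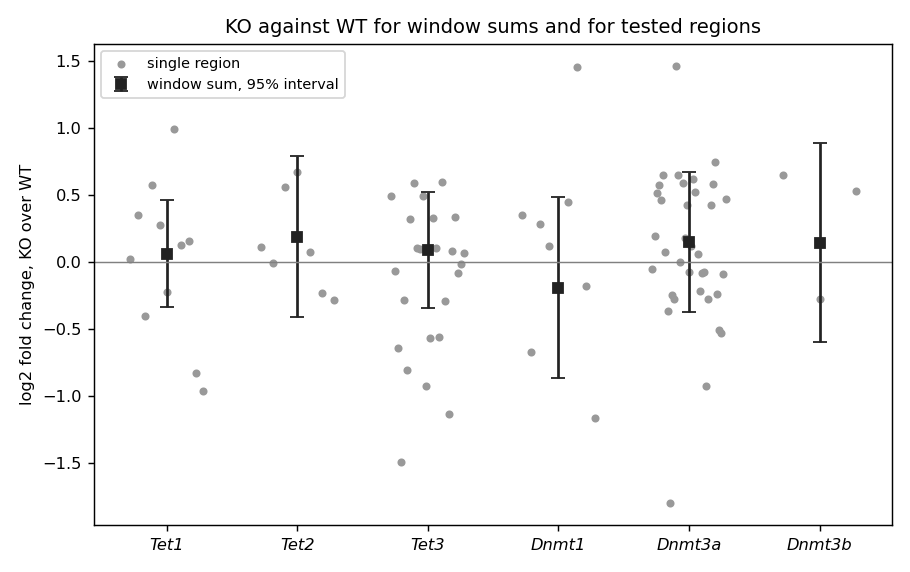
log2 fold change of KO over WT for each window sum (squares, with 95% intervals from the edgeR fit) and for each of its tested regions (grey points). Every window interval crosses 0, and single regions range from -1.80 to 1.46.

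To examine the regions one by one, all regions of the table were tested, and 89 of the 94 had counts high enough to enter the test. The other 5 fell under the count minimum and were left out of it. With edgeR and Benjamini-Hochberg adjustment, 0 of the 89 passed at adjusted p under 0.05, where 0% of the 176957 tested regions passed. DESeq2 called 0 of the 89, beside 0.00339% of all tested regions (6 of 176957). At an unadjusted p under 0.05, 3 of the 89 were higher in KO and 2 were lower. That is 3.37% and 2.25%, beside 1.54% and 1.27% of all tested regions. Total-count scaling gave 3 such members, beside 1.12% of all regions. The number was 1 without WT sample 2 (0.575% of all regions) and 3 without WT sample 1 (0.686%). It was 9 without KO sample 2 (11.2%) and 23 without KO sample 1 (23.4%), so the count over the whole table changed with the members.

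The directions were mixed within every family. The log2 fold change was above 0 in 50 regions and below 0 in 39, which is 56.2% above 0 beside 51.9% of all tested regions. Its median was 0.08 over the 89 and 0.02 over all. Both KO libraries lay above both WT libraries in 15 of the 89 (16.9%, beside 15.3% of all tested regions), and both lay below in 15 (16.9%, beside 15.6%). These shares were near those of the whole table. In 24 regions (27.0%, beside 29.0% of all) the KO libraries lay on opposite sides of both WT libraries, and in 8 (8.99%, beside 8.50%) the WT libraries lay on opposite sides of both KO libraries. The median absolute log2 ratio within a pair was 0.61 for KO and 0.34 for WT, the same as over all tested regions.

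Among the Tet genes, the Tet1 window had 2 regions with both KO libraries above WT and 3 with both below, Tet2 had 2 and 0, and Tet3 had 2 and 6. In the Dnmt windows, Dnmt1 had 1 and 1, Dnmt3a had 6 and 5, and Dnmt3b had 2 and 0. Spearman's rho over the 89 regions, which share their libraries and are not independent, was 0.861 within the WT genotype and 0.791 within KO. Across genotypes it was 0.834 and 0.839 for KO sample 1 with WT samples 1 and 2, and 0.756 and 0.764 for KO sample 2.

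Single regions are given next. In each gene they are the region of highest level, and among those above and those below WT the region with the lowest unadjusted p. Where a region was chosen by its p, a lack of overlap between genotypes follows in part from that choice. All had an adjusted p of 1.00 by edgeR with Benjamini-Hochberg adjustment. In Tet1, the widest region, chr10:62328456-62329809, held more in both KO libraries than in WT. It had 205 and 156 counts in KO samples 1 and 2, and 109 and 70 in WT samples 1 and 2. After scaling this was 9.61 and 10.1 CPM in KO and 5.82 and 4.07 CPM in WT, and the genotypes did not overlap. Its log2 fold change was 0.99 ± 0.34 (SE), with a 95% interval from 0.27 to 1.72. The adjusted p was 0.0156 without KO sample 1 and past the threshold in none of the other alternatives run.

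The remaining Tet1 regions pointed both ways. The region of highest level, chr10:62313668-62314628, held 8.25 and 8.0 CPM in KO and 8.66 and 12.8 CPM in WT. Both KO libraries lay below both WT libraries, with a log2 fold change of -0.40 ± 0.32 (SE). The most distant region, chr10:62390755-62391372, held 2.25 and 1.63 CPM in KO and 4.76 and 2.85 CPM in WT. Its log2 fold change was -0.96 ± 0.49 (SE). It follows the 34.1 kb gap and was the Tet1 region of lowest KO level relative to the lower WT library.

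In Tet2, the region of highest level, chr3:133202733-133203602, held 6.47 and 3.45 CPM in KO and 5.77 and 5.93 CPM in WT. Its log2 fold change was -0.23 ± 0.39 (SE) and turned to 0.15 without KO sample 2. The region chr3:133180290-133181365 held 5.72 and 5.59 CPM in KO and 2.56 and 4.54 CPM in WT. KO lay above WT there without overlap, with a log2 fold change of 0.67 ± 0.41 (SE).

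Tet3, the Tet gene with the most regions, had its highest level at chr6:83358216-83359550. This region held 322 and 239 counts in KO and 191 and 175 in WT, or 15.1 and 15.5 CPM against 10.2 and 10.2 CPM. The genotypes did not overlap, and the log2 fold change was 0.59 ± 0.29 (SE). In the opposite direction, chr6:83320435-83320732 held 13 and 7 counts in KO and 19 and 35 in WT. Its log2 fold change was -1.49 ± 0.82 (SE). Counts this low leave a wide error.

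The lowest unadjusted p of the 89 regions belonged to the Dnmt1 window. The region chr9:20776230-20777485 held 105 and 151 counts in KO and 293 and 294 in WT. Its level was 4.92 and 9.82 CPM in KO and 15.7 and 17.1 CPM in WT, so both KO libraries were lower, KO sample 1 more so. The log2 fold change was -1.16 ± 0.34 (SE), with a 95% interval from -1.88 to -0.44 and an unadjusted p of 0.00368 by edgeR. Without KO sample 1 it was -0.73 with an adjusted p of 0.0381 by edgeR, and without KO sample 2 it was -1.73 with an adjusted p of 2.2e-07. Without either WT library the adjusted p was 1.00. It lies 76.9 kb from the low-coordinate end of an 80 kb window, at its edge, and whether it belongs to Dnmt1 or to the next gene cannot be read from the count table.

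That region also decided the sign of the Dnmt1 window. With it left out, a choice made after its values were seen, the window's log2 fold change was 0.16 in place of -0.19. The Dnmt1 region chr9:20755358-20756137 went the other way, with 47 and 69 counts in KO and 32 and 12 in WT. Its log2 fold change of 1.45 ± 0.60 (SE) had an unadjusted p of 0.0285 by edgeR. It was 1.89 without KO sample 1, with an adjusted p of 0.0087, and 2.25 without WT sample 1. Without KO sample 2 it was 0.86 with an adjusted p of 0.667, and without WT sample 2 it was 0.96 with an adjusted p of 1.00, by edgeR.

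In Dnmt3a, the region of highest level among all 94 was chr12:3823202-3825237, with 376 and 468 counts in KO and 415 and 400 in WT. This was 17.6 and 30.4 CPM in KO and 22.2 and 23.3 CPM in WT. Its log2 fold change was 0.08 ± 0.30 (SE), which turned to -0.36 without KO sample 2. The region chr12:3834834-3835360 held 39 and 44 counts in KO and 12 and 18 in WT, with a log2 fold change of 1.46 ± 0.67 (SE). At a distance of a few kb, chr12:3830331-3830607 held 12 and 9 counts in KO and 48 and 25 in WT, with a log2 fold change of -1.80 ± 0.76 (SE). KO thus lay above WT in one region and below WT in the other, with further counted regions between them, and neither passed the adjusted threshold.

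Dnmt3b, the gene with the fewest regions, had its highest level at chr2:153502981-153503673, with 5.34 and 3.38 CPM in KO and 5.45 and 5.18 CPM in WT. The log2 fold change was -0.28 ± 0.39 (SE), and 0.00883 without KO sample 2. At chr2:153495844-153496229 the level was 3.52 and 3.77 CPM in KO and 2.03 and 2.62 CPM in WT. The log2 fold change there was 0.65 ± 0.46 (SE). The last region, chr2:153529057-153529357, held 26 and 21 counts in KO and 17 and 15 in WT.

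**Figure D5:**
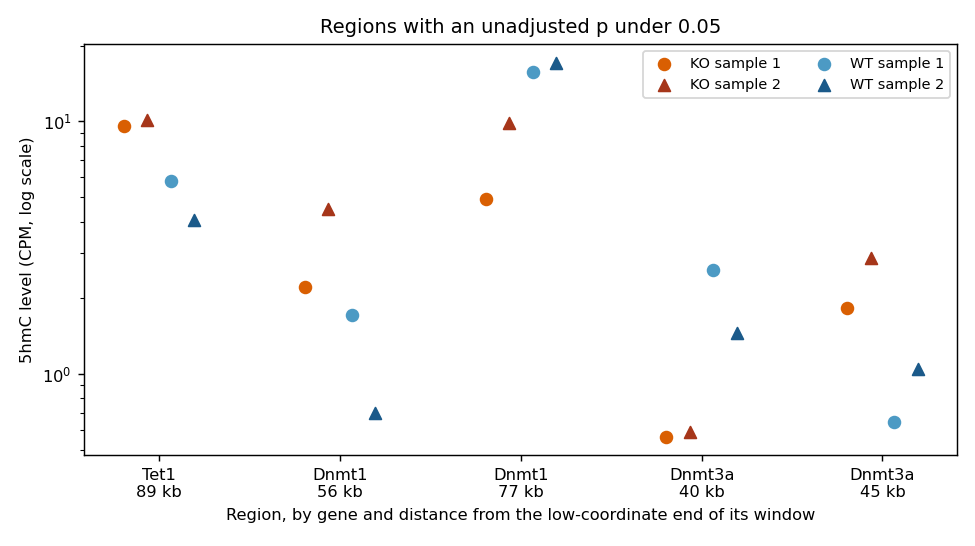
Level (CPM, log axis) in each library of the 5 regions with an unadjusted p under 0.05, named by gene and by distance from the low-coordinate end of the window. KO is higher in 3 and lower in 2, and none passed the adjusted threshold. KO and WT do not overlap in any of the 5, which follows largely from their choice by p. Of all tested regions, 15.3% had both KO libraries above both WT libraries and 15.6% had both below.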

How the data were processed

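5hmC-bearing DNA was tagged through an azide-modified glucose and biotin, purified and sequenced. The authors deposited raw read counts for 1 shared list of regions in 4 libraries, and per the labels the reads were aligned with Bowtie2 2.2.6 and the build was mm9. The counting program, region caller and handling of duplicate and multiply mapped reads are not given in the sources used here. Regions with near-identical copies elsewhere are therefore uncertain.

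A region belonged to a window by its midpoint. Genotypes were compared in edgeR 4.0.16 (R 4.3.3), by its quasi-likelihood test with TMM scaling and filterByExpr (minimum count 10, minimum total 15), once over all regions and once over the 6 windows with 100 kb tiles. Standard errors were taken from the fold change and its F statistic. P-values were adjusted by the Benjamini-Hochberg method, with a threshold of 0.05. The scripts were tested on simulated counts. TMM factors of both fits differed by at most 2.24%, and levels use those of the region fit. With 2 libraries per genotype, 2 residual degrees of freedom remained.

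The genes, windows and lists were chosen with earlier results of these data known. All 6 genes are named, and in each the region of highest level and the regions of lowest unadjusted p among those higher and those lower in KO. In Tet1 the rule also named regions empty in both KO libraries or under 10% of WT, of which there were none. Alternatives were DESeq2 1.42.0, total-count scaling, other filters and tile sizes, removal of the 25 highest regions from library sizes, overlap in place of midpoint, the sample number as a block, and leaving out each library. The Dnmt1 window without 1 region was added after the data were seen. A list of other genes of the methylation pathway was planned and could not be run, because no mm9 annotation was used here. No sequence is printed for the same reason.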

Additional observations from a re-analysis of the deposited data

How the results depend on the processing

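The log2 fold change of the windows kept its sign and its side of the threshold in 71 of 79 values recomputed under an alternative. These included DESeq2, total-count scaling, other filters and tile sizes, and removal of the 25 highest regions. The overlap rule, the tile sizes and that removal left the counts of the windows unchanged, so those values could hardly differ. Leaving out a library was the stronger check. The exceptions left out a library or the Dnmt1 edge region. Leaving out each library in turn, it ran from 0.00307 to 0.12 in Tet1, from -0.10 to 0.43 in Tet2, from -0.085 to 0.25 in Tet3, from -0.70 to 0.19 in Dnmt1, from -0.17 to 0.41 in Dnmt3a and from 0.04 to 0.24 in Dnmt3b. In Tet3 it was also -0.00494 without WT sample 1. In Dnmt1 it was 0.16 without the region chr9:20776230-20777485. Windows past the threshold numbered 0 to 1 (Dnmt3a without KO sample 1, Dnmt1 without KO sample 2). Member regions past it numbered 0 to 6 (6 without KO sample 1, where 7.52% of all regions were called, and 2 without KO sample 2, where 1.09% were), and those at unadjusted p under 0.05 numbered 1 to 23, beside 0.575% to 23.4% of all regions. Total-count scaling gave 3 of the latter (1.12% of all) in place of 5 (2.81% of all). Without KO sample 1, 3749 of 20384 windows and tiles were called by edgeR, and without KO sample 2 94 of 20387. Fits without a KO library take their residual spread from the WT pair alone. Without KO sample 2, the sign reversed for the region of highest level in Tet2 (leave-one-out range -0.76 to 0.15), Dnmt3a (-0.36 to 0.43) and Dnmt3b (-0.65 to 0.00883), and the other named regions kept theirs.

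With a replicate block for the sample number, 0 windows and 0 member regions passed, and the log2 fold change was 0.06 in Tet1, 0.17 in Tet2, 0.08 in Tet3, -0.25 in Dnmt1, 0.12 in Dnmt3a and 0.14 in Dnmt3b. The block called 79 regions of the whole table and 26 of 20102 windows and tiles, where the main edgeR fits without it called 0 of each. Libraries of the same number deviated together, and the deviations correlated at 0.164 over regions and 0.395 over tiles, and the labels give no shared origin for a number. The block changed no call among the members.

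Relaxed definitions of an empty region, with at most 3 counts in KO or at least 5 in WT, again gave 0 Tet1 regions. They were met by 58 and 74 of the 192196 regions, so 0 among the 12 Tet1 regions is near the share over all regions. The overlap rule took the identical 94 regions, and there was no empty Tet1 region to remove from its window. Depth limits single regions of few counts most, and 5 of the 94 were not tested.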
